A study of Drosophila melanogaster with 21 samples.

Results

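Cyclins and mitotic regulators were followed by the 10 genes CycA, CycB, CycB3, CycD, CycE, stg, twe, Cdk1, fzy and polo. A gene was taken where a probe set of the array carried its symbol or a synonym as the only gene. A named probe set was found for 6 of the 10 genes, out of 10826 genes on the array, and each of the 6 had 1 probe set: CycB (154177_at), CycB3 (143834_at), CycD (154137_at), CycE (154120_at), twe (153947_at) and fzy (155082_at). CycA, stg, Cdk1 and polo had no probe set under their names in the annotation and are not analysed here. The rule itself uses names only, although the genes were proposed with results of these data known.

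The RNA came from female Drosophila melanogaster, from the lower part of the reproductive tract, dissected with the upper uterus, the sperm-storage organs and the accessory glands. All females were 3 days old and kept at 23 C, and 12 to 40 tracts were pooled for each of 21 single-colour arrays. Unmated females gave 5 arrays. Mated females were dissected either right after mating (0 h, 6 arrays) or 3 h (4 arrays), 6 h (3 arrays) or 24 h (3 arrays) later. The labels give no mutation, transgene or agent for any group, and every p-value measures the spread between these pools.

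Cyclins bind and activate cyclin-dependent kinases, and their timed synthesis and destruction drive the cell through its division cycle. Cyclin D and cyclin E act before and at the start of DNA replication, whereas cyclin B and cyclin B3 act in mitosis and meiosis. Cdc25 phosphatases such as the product of twe switch on the mitotic kinase, and Fizzy directs the anaphase-promoting complex (APC/C), a ubiquitin ligase, to destroy the mitotic cyclins. In the adult fly most tract cells no longer divide, while the ovary holds dividing germ cells and oocytes that store cell cycle transcripts for the embryo.

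Array medians lay between 35.6 and 57.7 in linear signal units, the lowest on 6 h replicate 3. The array numbers in the labels fell into 6 blocks, called processing runs here although no label names them, and arrays from unmated females never shared a run with 0 h or 6 h arrays. Residuals of arrays within a run had a correlation of 0.311. One array, 0 h replicate 6, stood apart by the genes of late follicle cells, the cells that make the eggshell: the signal of the 13 measured genes of that list summed to 32760 there and to between 781.3 and 1518 on the other 20 arrays. Of 7 measured genes of the spermatheca and tract, 3 lay above the array median in unmated females: Send1, a serine endopeptidase of the spermatheca (geometric mean 11100), dsx (348) and Send2 (67.0). Gld (22.8), Hr39 (28.3), lz (30.8) and Dh44-R1 (6.00) lay below it.

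CycB, 1 of the cyclins that partner Cdk1 in mitosis, was highest at 6 h. Its signal in unmated females was 238.9, 201.6, 107.0, 109.9 and 183.9 on replicates 1 to 5, and at 6 h it was 1309.6, 1262.9 and 684.4. At 0 h the lowest of the 6 arrays was 63.1, the median 232.6 and the highest 966.7. The last of these is replicate 6, the array with eggshell transcripts, and the other 0 h arrays reached no more than 257.5. At 3 h the signal was 319.4, 140.6, 223.3 and 40.2, and at 24 h it was 194.1, 397.9 and 775.3. Every 6 h array lay above every unmated and every 3 h array, while the 24 h arrays spread from the unmated range up to that of 6 h.

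Mean log2 signals of CycB were 7.32 ± 0.53 (SD, n = 5) over the unmated arrays and 10.03 ± 0.53 (n = 3) over the 6 h arrays. The log2 difference of 2.71 (SE 0.71, 95% confidence interval 1.22 to 4.19), or 6.52-fold, did not pass the threshold of 0.05, with a limma adjusted p of 0.0555 over all 13966 probe sets (unadjusted 0.00112). CycB therefore lay at the border of the test, and several other ways of processing the arrays placed it on the other side. With processing run as a fixed block the difference was 1.06 (adjusted p = 0.771). Against 3 h the 6 h arrays were higher by 2.88 (SE 0.74, adjusted p = 0.0944), and against 0 h by 2.23 (SE 0.69, adjusted p = 0.204). Without 0 h replicate 6 the last value was 2.66 (adjusted p = 0.0613).

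CycB3, a cyclin that acts beside cyclin B and is needed in female meiosis, had its highest signals at 6 h as well. Its signal was 28.1, 59.1, 22.7, 39.6 and 62.2 in unmated females and 702.0, 406.0 and 65.5 at 6 h. The lowest, median and highest 0 h arrays read 5.9, 18.1 and 205.3. The 6 h arrays were thus all above the unmated arrays, but replicate 3 by a small margin only. At 3 h the signal was 64.9, 11.1, 6.6 and 17.9. At 24 h it was 50.2, 387.8 and 99.7, so that 1 array at 24 h came near the 6 h level.

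In mean log2 signal CycB3 stood at 5.29 ± 0.64 (SD, n = 5) in unmated females and at 8.05 ± 1.79 (n = 3) after 6 h. The 0 h mean was 4.55 ± 1.84 (n = 6), the 3 h mean 4.09 ± 1.41 (n = 4). The 6 h mean exceeded the unmated mean by 2.76 (SE 1.00, 95% confidence interval 0.67 to 4.85, 6.76-fold, limma adjusted p = 0.150). The difference from 3 h was 3.96 (SE 1.05, 15.5-fold, adjusted p = 0.102) and from 0 h 3.50 (SE 0.97, adjusted p = 0.140). None of the 3 passed. Without 0 h replicate 6, the array with eggshell transcripts, the difference of 6 h from 0 h was 4.13 and did pass (adjusted p = 0.0331). It passed in only 1 of the 21 fits with 1 array left out. Without 6 h replicate 1 this difference was 2.80 (adjusted p = 0.403). Against unmated, CycB3 at 6 h was higher by 2.05 with run as a fixed block (adjusted p = 0.764). Without 6 h replicate 1 it was higher by 2.06 (adjusted p = 0.386).

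The signal of fzy, the fly Cdc20 that activates the APC/C in mitosis, followed that of the B cyclins. It was 24.9, 18.5, 7.9, 32.8 and 3.4 in unmated females and 125.3, 88.7 and 41.8 at 6 h, with no overlap between these groups. At 3 h it was 21.4, 12.2, 19.2 and 9.6, all below 6 h. The 0 h arrays had a lowest value of 2.4, a median of 18.4 and a highest value of 102.8, again on replicate 6. The 24 h arrays read 21.0, 146.8 and 46.1 and overlapped the unmated and the 6 h ranges.

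On the log2 scale fzy averaged 3.73 ± 1.34 (SD, n = 5) in the unmated group and 6.28 ± 0.81 (n = 3) at 6 h, a difference of 2.55 (SE 1.06, 95% confidence interval 0.34 to 4.76, 5.85-fold, limma adjusted p = 0.206). With run as a fixed block it was 1.53 (adjusted p = 0.836). The 24 h mean was 5.71 ± 1.41 (n = 3), higher than unmated by 1.98 (SE 1.06, adjusted p = 0.676). The dimness of this probe set limits these values: only 5 of 21 arrays had it above the array's own median.

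CycE, the cyclin that with Cdk2 starts DNA replication, had a dim probe set, above the array median on 3 of 21 arrays. It read 3.3, 28.8, 3.2, 2.3 and 7.7 in unmated females and 125.1, 64.6 and 3.7 at 6 h. The 3 h arrays read 15.4, 2.0, 15.9 and 3.5, the 24 h arrays 26.5, 84.1 and 3.6, and the 0 h arrays between 1.8 and 26.1 with a median of 5.95. Both arrays of run 6, 6 h replicate 3 and 24 h replicate 3, were at the unmated level, and the groups overlapped. CycE averaged 2.48 ± 1.47 in log2 (SD, n = 5) without mating and 4.96 ± 2.70 (n = 3) 6 h after it, a difference of 2.48 (SE 1.17, 95% confidence interval 0.04 to 4.92, limma adjusted p = 0.272). Without 6 h replicate 3 the difference was 4.01 (adjusted p = 0.126), and without 6 h replicate 1 it was 1.47 (adjusted p = 0.616).

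CycD, the partner of Cdk4 in growth and the first gap phase, differed little between the groups. Its signal was 57.4, 20.0, 58.9, 109.6 and 99.3 in unmated females and 139.8, 88.1 and 27.4 at 6 h. The 3 h arrays read 98.1, 73.6, 48.2 and 84.3, the 24 h arrays 64.5, 114.5 and 51.4, and the 0 h arrays between 25.5 and 92.4 with a median of 68.65. All 5 groups overlapped, and the group means in log2 lay between 5.89 and 6.20. The difference between 6 h and unmated was 0.23 (SE 0.56, 95% confidence interval -0.94 to 1.41, limma adjusted p = 0.875), an interval that leaves room for changes of more than 2-fold in the upward direction. The direction turned when 6 h replicate 1 was left out, with a value of -0.27.

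The dim probe set of twe, a Cdc25 phosphatase needed for meiosis in both sexes, showed no common order with the B cyclins. It read 6.9, 44.6, 1.7, 37.6 and 59.2 in unmated females and 56.0, 45.5 and 5.9 at 6 h. It read 8.2, 22.4, 12.5 and 23.6 at 3 h and 17.3, 3.1 and 2.2 at 24 h, and at 0 h between 2.3 and 23.2 with a median of 8.15. The groups overlapped throughout. The difference between 6 h and unmated was 0.60 (SE 1.10, 95% confidence interval -1.71 to 2.90, limma adjusted p = 0.825) and was -0.22 without unmated replicate 3. The lowest twe mean was that of 24 h, at 2.29 ± 1.59 (SD, n = 3) against an unmated mean of 4.03 ± 2.19 (n = 5), a difference of -1.74 (SE 1.10, adjusted p = 0.736).

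**Figure D1:**
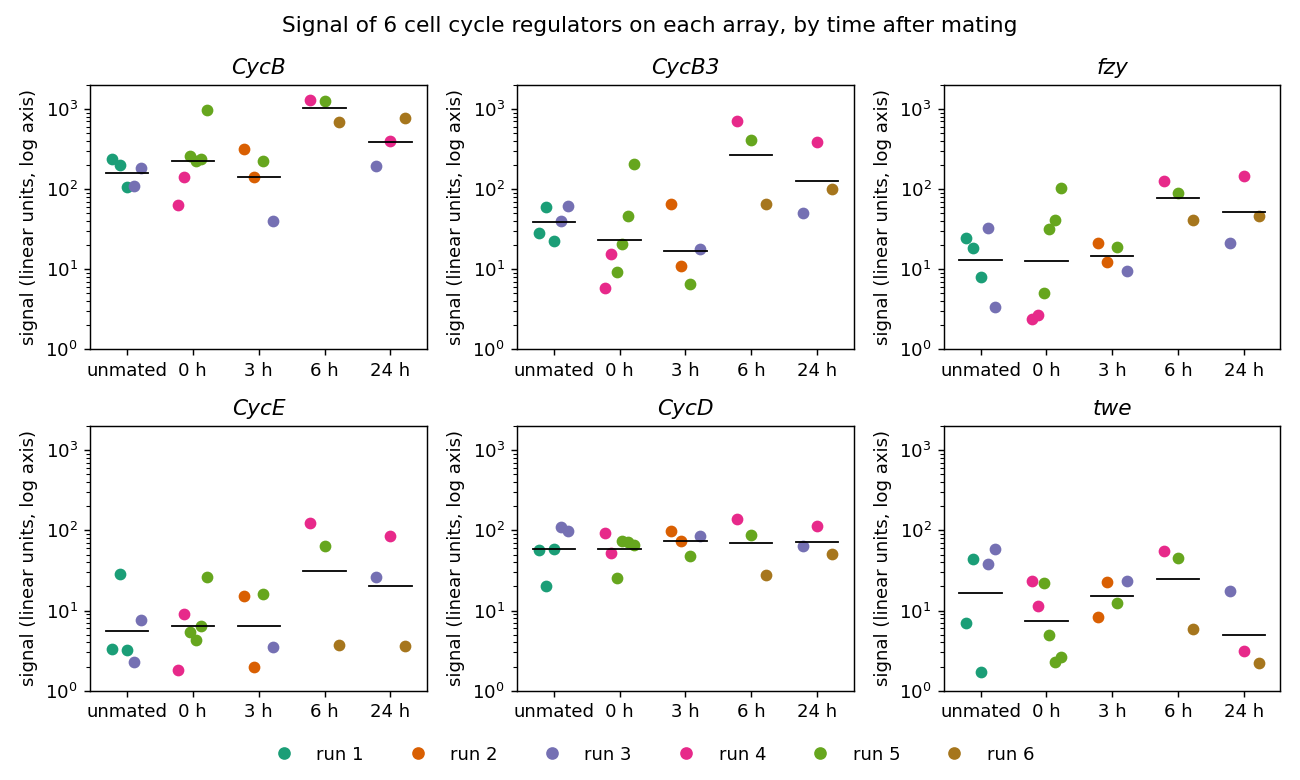
Signal of the 6 measured genes on each of the 21 arrays (linear units, log axis), by group; each point is 1 array, coloured by processing run, and each bar is the geometric mean of its group. For CycB, CycB3 and fzy all 3 arrays at 6 h lie above all 5 unmated arrays, whereas CycD and twe overlap in every group.

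Read as a set, the 6 genes gave 0 calls in limma at 6 h against unmated, where 1.84% of all probe sets passed. Of the 6, 4 had an unadjusted p under 0.05 (CycB, CycB3, fzy and CycE), against 17.7% of all probe sets. Ranges higher at 6 h with no overlap were found for 3 of the 6 (CycB, CycB3 and fzy), against 4.71% of all probe sets. All 6 differences were above 0, against 39.7% of probe sets, and their median was 2.51 beside -0.21 for all probe sets. The median was 1.30 with run as a fixed block, 1.48 with log2 of signal plus 16 and 1.76 without 6 h replicate 1. Without 6 h replicate 3, the array of lowest median, the differences were 3.01 for CycB (adjusted p = 0.104), 3.77 for CycB3 (0.119) and 2.99 for fzy (0.312). These counts describe 6 genes that share the same arrays and are not independent of each other.

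At the other times no call was made either. No member passed in limma at 0 h, where 0% of probe sets passed, at 3 h (0.115%) or at 24 h (0%), and none had an unadjusted p under 0.05 in these 3 comparisons. Median differences of the members were -0.03 at 0 h and 0.03 at 3 h, beside -0.10 and -0.14 for all probe sets. At 24 h the median was 1.48 beside -0.10, and CycB (1.29, SE 0.71), CycB3 (1.67, SE 1.00), fzy and CycE (1.84, SE 1.17) all had confidence intervals that reached below 0. The largest negative value at 0 h was -1.13 for twe (SE 0.91), and at 3 h -1.20 for CycB3 (SE 0.92). These comparisons share the unmated arrays.

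The mated times were also compared with each other, and CycB, CycB3, fzy and CycE had higher means at 6 h than at 0 h or 3 h, whereas CycD was lower at 6 h than at 3 h (-0.08). No member passed at 6 h against 0 h (0.179% of probe sets passed) or at 6 h against 3 h (0.451%), but 3 members had an unadjusted p under 0.05 in each, beside 10.6% and 11.7% of all probe sets. They were CycB, CycB3 and fzy in both. The median differences of the members were 2.26 and 2.33, beside -0.10 and -0.01 for all probe sets. From 0 h to 3 h (0.0644% of probe sets passed) and from 6 h to 24 h (0.0358%) no member passed and none had an unadjusted p under 0.05. At 24 h CycB was lower than at 6 h by 1.41 on the log2 scale, with a value of -1.41 (SE 0.79, adjusted p = 0.788), and twe by -2.33 (SE 1.23, adjusted p = 0.780).

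In order of group means, CycB was highest in the 6 h group, followed by 24 h, 0 h, unmated and 3 h, whereas for CycB3 the unmated group preceded 0 h. No neighbouring pair in these orders that was compared passed the test. The moderated F test over the 5 groups, which 0.344% of probe sets passed, gave no call for any member, with adjusted p-values of 0.179 for CycB3, 0.196 for CycB, 0.454 for fzy, 0.605 for CycE, 0.687 for twe and 0.981 for CycD. Unadjusted, CycB3 (0.00482) and CycB (0.00599) were under 0.05.

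**Figure D2:**
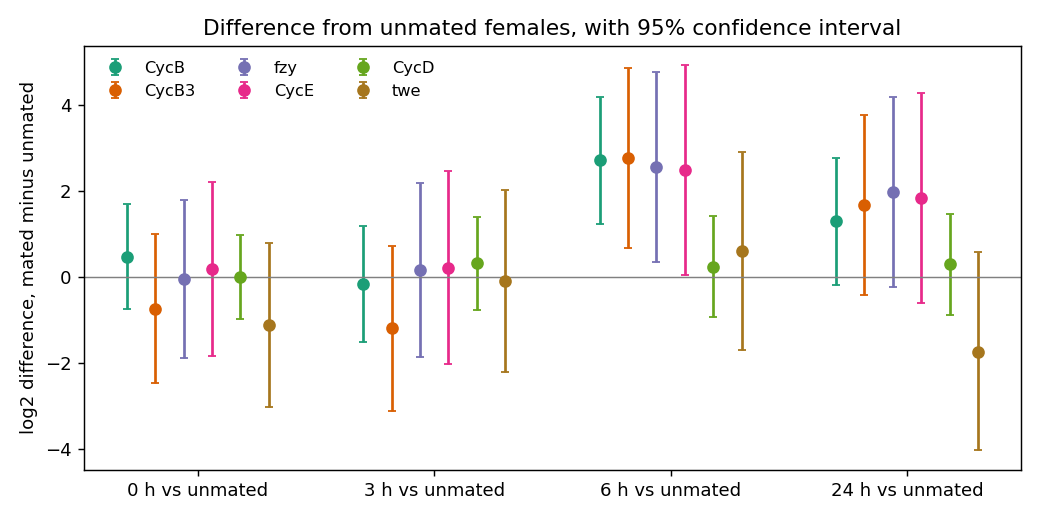
Log2 difference of each gene from unmated females at the 4 mated times; points are limma estimates and bars 95% confidence intervals. At 6 h the intervals of CycB, CycB3, fzy and CycE lie above 0, and none of the differences passes after adjustment over all probe sets.

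Runs 4 and 5 each held arrays of 0 h and 6 h, so that these times could be set beside each other within a run. In run 4, with 1 array at 6 h and 2 at 0 h, the difference of the log2 signal was 3.79 for CycB, 6.21 for CycB3, 5.62 for fzy and 4.96 for CycE. In run 5, with 1 array at 6 h and 4 at 0 h, it was 1.89 for CycB, 3.47 for CycB3, 1.63 for fzy and 3.03 for CycE. All 4 genes were thus higher at 6 h in both runs. The single 6 h and 3 h arrays of run 5 differed by 2.50 for CycB, 5.94 for CycB3, 2.21 for fzy and 2.02 for CycE. CycD and twe were also higher at 6 h within these runs, CycD by 1.00 and 0.69 against 0 h and twe by 1.79 and 3.17. The 6 h arrays of runs 4 and 5 were replicates 1 and 2. Replicate 3 had the lowest 6 h signal of every member and is not covered by these values. It lay in run 6, which held no 0 h or 3 h array.

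The 24 h arrays gave no common picture within runs. In run 4 the 24 h array was lower than the 6 h array by 1.72 on the log2 scale for CycB (a value of -1.72) and by 0.86 for CycB3 (-0.86), and it was higher by 0.23 for fzy. In run 6 it was higher by 0.18 for CycB, 0.61 for CycB3 and 0.14 for fzy. In run 3, where 1 array at 24 h stood beside 2 unmated arrays, CycB was higher at 24 h by 0.45, CycB3 by 0.02, fzy by 0.99 and CycE by 2.65. The 1 array at 3 h in run 3 was lower than the unmated arrays for CycB (-1.82) and CycB3 (-1.47).

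CycB, CycB3, fzy and CycE also varied together from array to array. Over the 21 arrays, Pearson's r of the log2 signals was 0.77 for CycB with CycB3, 0.79 for CycB3 with fzy, 0.74 for CycB with fzy and 0.74 for CycB3 with CycE. With run means removed these became 0.90, 0.83, 0.71 and 0.82. For CycB with CycE r was 0.62 and for CycE with fzy 0.58, or 0.83 and 0.67 with run means removed. CycD and twe had an r between -0.27 and 0.34 with each other and with the rest. With run means removed this range was -0.32 to 0.52, highest for CycD with fzy, and CycD with CycB3 had 0.48. The points share arrays, runs and groups, so these values describe the data set and carry no test.

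The genes most like the mean standardised profile of the 6 members, among 5899 other genes at or above the middle signal, were Kmn1, a kinetochore gene (r = 0.89 over 21 arrays), Map60, which encodes a centrosomal microtubule-binding protein (0.85), Cdk2, the kinase partner of cyclin E (0.84), jigr1 (0.84) and Pen, an importin alpha (0.82). With run means removed, Pen (0.94), Skp2, an F-box gene (0.94), and PCNA, the sliding clamp of DNA replication (0.92), led, followed by Kmn1 (0.92) and Map60 (0.91). These genes were picked for a profile that is highest on 2 of the 6 h arrays, so their differences between 6 h and unmated on the same arrays are given as a description, with no test. In log2 they were 3.81 for Pen, 2.23 for PCNA, 1.68 for Skp2, 1.68 for Kmn1, 1.42 for Cdk2 and 0.59 for jigr1.

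Transcripts of the germline and oocyte moved with the members across arrays. Of 29 listed germline genes, 27 were measured. Their summed signal ranged from 1833 to 2230 over the unmated arrays and from 1600 to 5268 over the 6 h arrays. It ranged from 1196 to 2744 at 0 h, from 1191 to 2095 at 3 h and from 1793 to 2258 at 24 h. By group mean, 8 of the 27 lay above the array median in unmated females and 16 at 6 h. The geometric mean signal of osk, which organises the germ plasm of the oocyte, was 10.8 in unmated females and 144 at 6 h. That of vas, a germline RNA helicase, was 7.65 in unmated females and 66.1 at 6 h. Neither passed (limma adjusted p = 0.0993 and 0.140), and the list was mixed: 18 of the 27 differences were above 0 and 9 below, among them tud (-2.07) and egl (-1.65).

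At 6 h against unmated, 3 of the 27 germline genes rose: swa, needed to localise bicoid mRNA (4.40, limma adjusted p = 0.0195), pgc, a germ cell gene (3.58, adjusted p = 0.0279), and tor, a receptor kinase stored in the egg (2.07, adjusted p = 0.0394). None fell, and the median difference of the list was 0.80. Over all 13966 probe sets, 94 rose and 163 fell, or 1.84% called. Array by array, the mean log2 signal of the list had r = 0.85 with the members' mean profile, and 0.92 with run means removed. It was 0.84 for CycB3, 0.81 for CycB, 0.69 for fzy, 0.64 for CycE, 0.20 for CycD and 0.17 for twe. The arrays 6 h replicate 1 and 6 h replicate 2, highest in the members' profile (1.70 and 1.31), were highest in the germline list too (6.52 and 6.22).

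The 2 measures are given next for single arrays, picked after their values were seen. On 6 h replicate 3 the members' profile was -0.18 and the germline mean 4.73, equal to the unmated mean of 4.73 ± 0.20 (SD, n = 5). The members were divided on this array. CycB (684.4), CycB3 (65.5) and fzy (41.8) lay above every unmated array, whereas CycE (3.7), CycD (27.4) and twe (5.9) lay within the unmated range. Its summed germline signal of 1600 was below the unmated range of 1833 to 2230. On 0 h replicate 6, the array with eggshell transcripts, the members' profile was 0.57 and the germline mean 5.64, both the highest of the 0 h group. The 2 measures did not always run together: 24 h replicate 2 had a members' profile of 0.90 with a germline mean of 4.46. Unmated replicate 3, with a germline mean of 4.45, had the lowest profile of all 21 arrays (-0.82). On 24 h replicate 3 the profile was -0.03 with a germline mean of 5.21. The part of germline RNA in the members' differences was not tested. In bulk tissue, more cells of a type and more RNA per cell cannot be told apart.

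**Figure D3:**
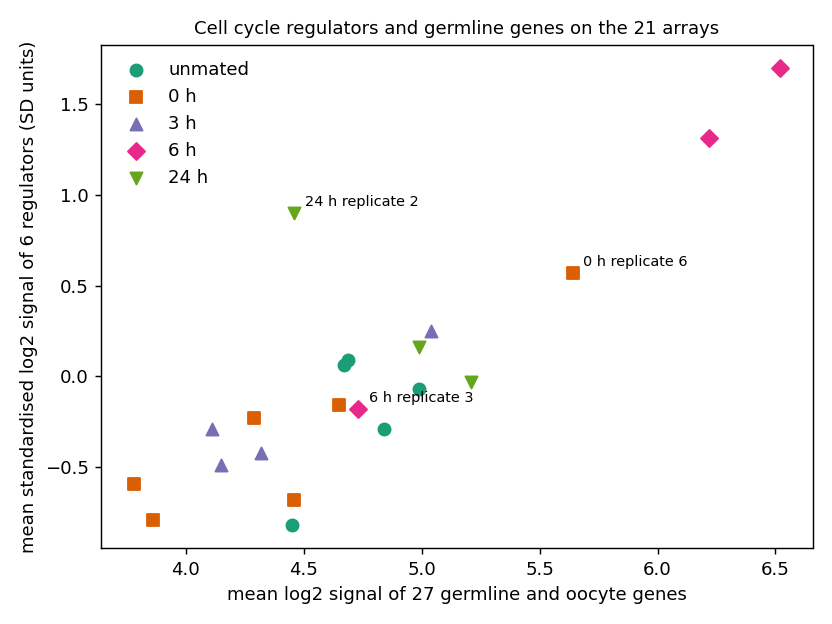
Mean standardised log2 signal of the 6 genes (vertical, SD units) against the mean log2 signal of 27 germline and oocyte genes (horizontal), 1 point per array, by group. The arrays 6 h replicate 1 and 6 h replicate 2 lie highest on both axes, and 6 h replicate 3 lies among the unmated arrays. The array 24 h replicate 2 lies high on the vertical axis with a germline mean near those of unmated arrays.

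Lists of other cell types ran less closely with the members' mean profile. With run means removed, their r with it lay between -0.56 for fat body and 0.30 for male accessory gland, and late follicle cells had 0.19. Single members could differ from their mean. As measured, CycB had r = -0.66 with the hemocyte list, -0.46 with the spermatheca and tract list and 0.30 with late follicle cells. At 6 h against unmated, 0 of the 13 measured late follicle genes passed in limma. In the other lists, 3 of 9 neuron genes fell, beside 163 of all 13966 probe sets. They were elav (a log2 difference of -3.34, limma adjusted p = 0.0112), nSyb (-2.40, 0.0384) and Syn (-3.72, 0.0184). Their signal was dim, which limits these values. The geometric means were 26.7, 25.55 and 19.4 in unmated females and 2.64, 4.85 and 1.47 at 6 h. Of 7 tract genes Send2, a spermathecal endopeptidase, was higher by 6.88 (limma adjusted p = 0.000112). It was the only 1 above 0: the other 6 tract genes were below 0, and the median of their list was -0.70. None of 10 hemocyte genes passed, and their median was -0.77. The part of these cell types in the members' differences was not tested. RNA quality was read from the control probe sets of eIF-4a and GAPDH as the log2 of 3' over 5' signal, which averaged 3.90 ± 2.01 (SD, n = 5) over the unmated arrays and 2.82 ± 0.73 (n = 3) over the 6 h arrays. It had r = 0.05 with the members' profile, -0.43 with CycB and 0.57 with twe.

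Beyond the members, 76 other cell cycle genes of 10 roles were measured. At 6 h against unmated, 3 of them rose (Rca1, feo and E2f2) and 2 fell (Cdc27 and tws) in limma, beside 1.84% of all probe sets called. Of the 76, 53 were above 0, beside 39.7% of all probe sets, and their median was 0.57 beside -0.21. At an unadjusted p under 0.05 there were 23 higher and 3 lower, beside 17.7% of all probe sets in either direction. In the 0 h, 3 h and 24 h groups none of the 76 passed in limma, and at an unadjusted p under 0.05 there were 0 higher and 3 lower at 0 h, 3 higher and 3 lower at 3 h, and 12 higher and 4 lower at 24 h, beside 7.43%, 7.64% and 7.86% of all probe sets in either direction. Against 0 h, 1 passed at 6 h (Rca1), beside 0.179% of probe sets. Against 3 h, 4 passed, beside 0.451%, all higher at 6 h: Rca1, mad2, feo and lok. All 5 calls against unmated ended with run as a fixed or random block and when only the groups compared were fitted.

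Rca1 encodes an inhibitor of the APC/C that keeps cyclins from being destroyed too early. Its signal was 33.8, 76.0, 29.8, 63.1 and 46.1 in unmated females and 426.6, 147.1 and 167.4 at 6 h. The 6 h arrays lay above all other arrays of the series. It was higher at 6 h by 2.23 (SE 0.44, 4.69-fold, limma adjusted p = 0.0145) against unmated, 2.15 (SE 0.42, adjusted p = 0.0424) against 0 h and 2.40 (SE 0.46, adjusted p = 0.0331) against 3 h. Within runs, 6 h exceeded 0 h by 3.34 in run 4 and by 1.47 in run 5. Without 6 h replicate 1 its adjusted p against unmated was 0.0643, and with run as a fixed block the difference was 1.42 (adjusted p = 0.585).

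The gene feo encodes a protein that bundles microtubules of the central spindle in cytokinesis. Its signal was 8.3, 9.1, 4.7, 12.2 and 4.3 in unmated females and 275.6, 198.4 and 23.4 at 6 h. It was 35.4, 109.2 and 48.9 at 24 h, also above every unmated array. The difference was 3.93 at 6 h (SE 0.79, 15.2-fold, limma adjusted p = 0.0164) and 3.01 at 24 h (SE 0.79, adjusted p = 0.383). At 6 h the call was lost without 6 h replicate 1 (adjusted p = 0.0699) or 6 h replicate 2 (0.0548). E2f2, the repressive E2F factor of the fly, was 90.8, 88.5, 99.0, 79.5 and 67.3 in unmated females and 409.7, 234.2 and 200.2 at 6 h, without overlap. Its difference of 1.67 (SE 0.43, limma adjusted p = 0.0485) lay just inside the threshold and was lost without any 1 of the 5 unmated arrays.

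Cdc27 and tws fell at 6 h. Cdc27, a core subunit of the APC/C, read 68.9, 90.2, 16.8, 40.8 and 81.1 in unmated females and 13.5, 10.8 and 15.3 at 6 h, a difference of -1.97 (SE 0.47, limma adjusted p = 0.0340). Quantile normalization gave -1.65 (adjusted p = 0.0768) and median centring -1.67 (0.0606), so that its call did not hold under other scalings. The tws gene, a regulatory subunit of the phosphatase PP2A that reverses mitotic phosphorylation, read 126.7, 161.9, 142.3, 222.9 and 210.9 in unmated females and 32.6, 77.2 and 18.7 at 6 h. Its difference was -2.23 (SE 0.53, adjusted p = 0.0346), and its dimmer probe set gave -1.44 (adjusted p = 0.380). Within runs, Cdc27 differed at 6 h from 0 h by -1.90 in run 4 and -2.48 in run 5 and from 3 h by -1.57 in run 5. For tws the same comparisons gave -1.79, 0.36 and -0.60. Without 6 h replicate 3 the values were -1.75 (adjusted p = 0.197) for tws and -2.08 (adjusted p = 0.0874) for Cdc27. The tws call was also lost without any 1 of the 5 unmated arrays. The Cdc27 call was lost without unmated replicate 1, 2, 4 or 5, and without any 1 array at 6 h.

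By role, medians at 6 h against unmated were 1.15 for 8 genes of anaphase and chromatid separation, 1.01 for 10 of mitotic kinesins and cytokinesis, 0.87 for 7 of egg activation and the early cycles, 0.80 for 10 of Polo, Aurora and centrosome kinases and 0.55 for 7 of the spindle checkpoint. They were 0.40 for the 6 other cyclins, 0.26 for 9 cyclin-dependent kinases and Cks subunits and 0.13 for 5 of E2F and Rb. They were 0.04 for 2 Cdk inhibitors and inhibitory kinases and 0.02 for 12 of the APC/C and its activators. The last list also holds Rca1, an inhibitor of the APC/C (2.23). The list of Cdc25 phosphatases held no measured gene other than twe. These medians stand beside -0.21 for all probe sets, and no role was tested against another.

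In the roles without a call, the 2 genes of smallest p were taken as examples. Among other cyclins these were CycT (-1.58, SE 0.48, limma adjusted p = 0.0909) and CycC (0.73, SE 0.32, adjusted p = 0.229), which serve transcription rather than the division cycle. Among kinases and Cks subunits they were Cks30A (2.70, SE 0.92, adjusted p = 0.128), which is needed in female meiosis, and Cdk2 (1.42, SE 0.52, adjusted p = 0.154). The spindle checkpoint gave Zw10 (1.20, SE 0.33, adjusted p = 0.0664) and mad2 (2.99, SE 0.87, adjusted p = 0.0785). Signal of mad2 was 258.9, 98.4 and 7.2 at 6 h and between 1.9 and 4.3 at 3 h, and against 3 h its rise of 4.32 passed (SE 0.91, adjusted p = 0.0449).

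For anaphase the examples were pim, the fly securin (2.70, SE 0.88, limma adjusted p = 0.112), and barr, a condensin subunit (1.65, SE 0.55, adjusted p = 0.118). For egg activation they were plu, part of the PNG kinase complex of the early embryo (2.80, SE 0.86, adjusted p = 0.0953), and grp, the fly Chk1 (1.34, SE 0.40, adjusted p = 0.0813). The kinase gene lok, the fly Chk2, was higher at 6 h than at 3 h by 3.75 (SE 0.83, adjusted p = 0.0480). Against unmated the difference of lok was only 1.49 (SE 0.79, adjusted p = 0.332), so that its 3 h mean lay below the unmated mean. The inhibitors were rux (0.72, SE 0.36, adjusted p = 0.303) and trbl (-0.63, SE 0.32, adjusted p = 0.311). No signal of plu at 6 h, which read 128.3, 57.1 and 57.4, overlapped the unmated arrays, whose highest was 35.5.

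**Figure D4:**
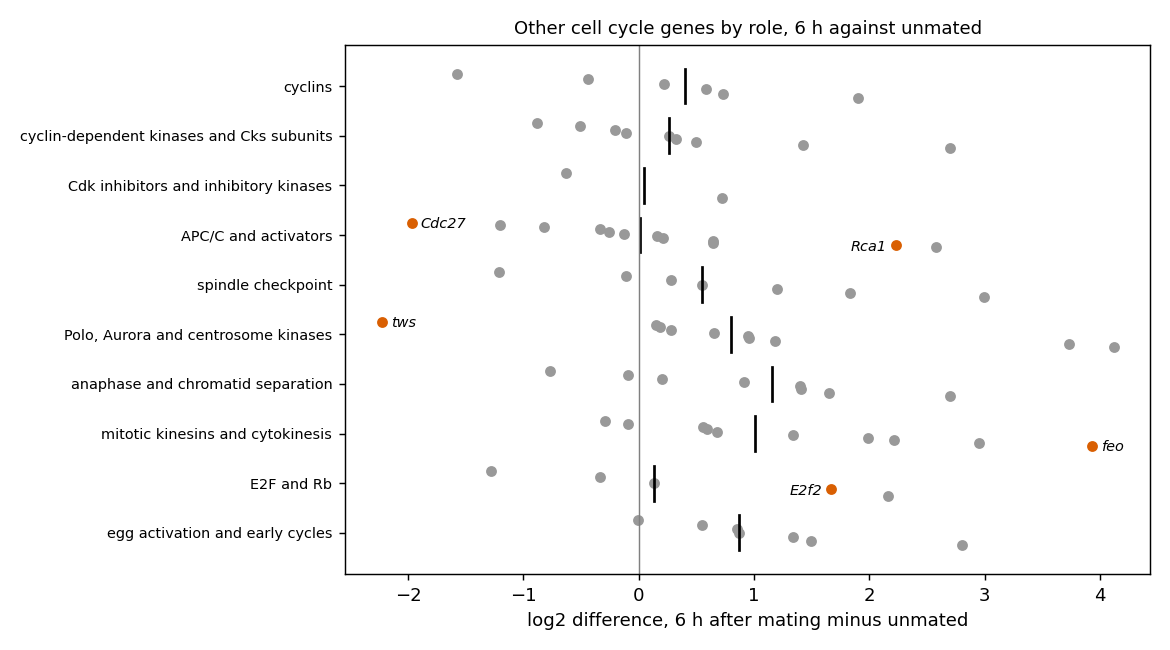
Log2 difference between 6 h and unmated females for 76 other cell cycle genes in 10 roles; each point is a gene, orange marks an adjusted p under 0.05 and black bars are the medians of each role. Rca1, feo and E2f2 lie above 0 and Cdc27 and tws below it, and the role medians run from 0.02 to 1.15.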

How the data were processed

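The deposited intensity values are linear signals, 1 per probe set and array. Per the submitters' processing notes the authors used RMA, with no version, but the values are not on a log scale, array quartiles differ, and the 2% trimmed mean of every array lies between 149.8 and 149.9. The summary method is therefore not settled, and the software behind it is not named in the labels. Of 14010 probe sets, 44 controls were left out and 13966 tested, and 12443 of these carry 1 gene symbol in GEO's platform annotation, 327 several and 1196 none. Symbols of 12394 were updated through RefSeq's Release 6 plus ISO1 MT, used for names only. A gene is represented by its brightest probe set.

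Signals were put on the log2 scale as deposited, without a pseudocount or another scaling, so that fold changes are ratios of geometric means. Probe set levels were not compared between genes. limma 3.58.1 (R 4.3.3) fitted 5 group means over 21 arrays, with 8 comparisons, 2-sided moderated tests, 95% confidence intervals and Benjamini-Hochberg adjustment over all probe sets. Every adjusted p comes from this tool. Runs were inferred from gaps of over 20 between array numbers. Replicates are numbered in accession order and pair nothing. No 2 arrays of a group shared more than 0.508% of their values. The number of arrays limits the precision.

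The members and all gene lists were chosen with earlier results of these data known. All members are named. Of each wider list, genes past 0.05 against unmated are named, otherwise the 2 of smallest p at 6 h, and the 5 genes most like the members' profile. The genes mad2 and lok were also named for passing between 6 h and 3 h, and swa, pgc, tor, osk, vas, tud, egl and the marker genes of other cell types were picked after their values were seen. The procedure was tested on simulated data. Alternatives were quantile normalization, median centring, brighter probe sets, log2 of signal plus 16, a fixed or a random block for run, a fit without the other groups, no run 6, the 3' to 5' ratio, a variance trend, array weights, 1 probe set per gene and each array left out.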

Additional observations from a re-analysis of the deposited data

How the results depend on the processing

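At 6 h against unmated, 1 member passed in place of 0, always CycB, with median centring (adjusted p = 0.0283), brighter probe sets (0.0290), log2 of signal plus 16 (0.0256), only the groups compared (0.0355), variance trend and robust moderation (0.0305) and 1 probe set per gene (0.0496). Leaving out 1 array in turn gave 0 to 1 members, with CycB at 2.54 to 3.01 (adjusted p 0.0317 to 0.127), past the threshold without 0 h replicate 1, 0 h replicate 6, 3 h replicate 4 or 24 h replicate 3. CycB3 spanned 2.06 to 3.77, fzy 2.06 to 2.99 and CycE 1.47 to 4.01. Against 0 h the count was again 0 to 1 (CycB3 without 0 h replicate 6), and against 3 h it was 1 with log2 of signal plus 16 (CycB, adjusted p = 0.0476). Only CycD and twe changed sign. With run as a fixed block CycD was -0.35 at 6 h and -0.31 at 24 h against unmated. Between 6 h and 3 h, where CycD was -0.08, it was 0.04 with quantile normalization, 0.34 and 0.08 with run as a fixed or random block, 0.59 without run 6, 0.24 with the 3' to 5' ratio and 0.07 with array weights. With 1 array left out CycD spanned -0.27 to 0.90 at 6 h against unmated and against 0 h, -0.58 to 0.59 against 3 h and -0.11 to 0.53 at 24 h against unmated, and twe -0.22 to 1.63 at 6 h against unmated. Over all probe sets 257 passed at 6 h against unmated (94 higher, 163 lower), and 5 with run as a fixed block, 65 as a random block, 60 with only the groups compared, 130 without run 6, 95 without 6 h replicate 3, 132 without unmated replicate 3, 157 without unmated replicate 1 and 161 without unmated replicate 4. The count was 507 with log2 of signal plus 16, 427 with brighter probe sets, 427 with a variance trend, 392 with the 3' to 5' ratio and 398 without 24 h replicate 3. Median centring, which moved the median of all probe sets from -0.21 to 0.09, gave 242 higher and 105 lower, and quantile normalization (0.02) gave 140 and 109. The causes were not tested. No paired analysis was possible because replicate numbers pair no samples.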

Other observations

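A further 4 cell cycle genes that the naming rule did not select were picked after their values were seen. The gene mtrm, an inhibitor of Polo kinase in the oocyte, had a log2 difference of 4.12 at 6 h against unmated (SE 1.14, limma adjusted p = 0.0674), and gwl, which encodes the Greatwall kinase, 3.73 (SE 0.96, adjusted p = 0.0505). The meiotic APC/C activator cort differed by 2.58 (SE 0.86, adjusted p = 0.118), and Klp61F, a mitotic kinesin of the spindle, by 2.95 (SE 0.80, adjusted p = 0.0611). None of these 4 passed. In all 4 every 6 h array lay above every unmated array, as in 4.71% of all probe sets. Because the 4 were picked with their values known, this is a description only.

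The 2 probe sets of borr, a subunit of the chromosomal passenger complex, disagreed. The brighter one had a difference of 0.96 at 6 h against unmated (SE 0.60, limma adjusted p = 0.419), and the dimmer one 4.36 (SE 0.88, adjusted p = 0.0164). The dimmer probe set was also higher at 6 h against 0 h by 4.23 (SE 0.85, adjusted p = 0.0431) and against 3 h by 4.20 (SE 0.92, adjusted p = 0.0480). Counts of called genes use the brighter probe set.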
